A study of Mus musculus with 24 samples.

Results

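Lysozyme 1 (Lyz1), mucosal pentraxin 2 (Mptx2), intelectin 1 (Itln1), angiogenin 4 (Ang4), the C-type lectins Reg3g and Reg3b, and matrix metalloproteinase 7 (Mmp7, matrilysin) are secreted products of the small intestinal Paneth cell other than its alpha-defensins. These 7 genes, matched by symbol among 55401 genes, were described in 24 bulk RNA sequencing libraries of male C57BL/6 mice aged 11 weeks. The mice had received propyzamide, a herbicide, or an empty vehicle, and no altered allele is named for any group. Within each treatment 4 libraries came from unstimulated animals, 4 were collected 3 h after stimulation through CD3, a part of the T cell receptor complex, and 4 were collected 24 h after it. The 4 libraries of a group are labelled as separate samples, but the labels do not say that each is 1 animal, so p-values measure the spread between these libraries. The labels used here name no dose, route, tissue or cell sort. The genes were chosen from an earlier view of these data, so their values are a description, and adjusted p-values over all tested genes only place them among the rest.

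Paneth cells sit at the base of the small intestinal crypts and release granules of antimicrobial protein into the crypt lumen. Lysozyme cleaves bacterial cell walls, intelectin binds microbial glycans, angiogenin 4 is an antimicrobial ribonuclease, and matrilysin activates the alpha-defensin precursors. Mptx2 is a pentraxin of the Paneth cell granule. Reg3g and Reg3b are bactericidal lectins that are also made by enterocytes, and in the gut both are known as targets of interleukin-22 and STAT3. Intestinal damage after anti-CD3 is a known feature of this stimulus in mice.

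The series title names T cells, and the unstimulated libraries held more epithelial than T cell RNA. A level here is in CPM, counts scaled to a common library total after TMM normalisation, unless said otherwise. In unstimulated vehicle libraries the 12 T cell genes summed to a median of 23.9 CPM, against 204 for 12 pan-epithelial genes, 3292 for the alpha-defensin genes and 772 for Lyz1, Itln1, Mptx2, Ang4 and Mmp7 together. Each of the 12 T cell genes was detected in that group, and 4 of 8 pancreatic acinar genes (Cel, Cpa1, Ctrb1 and Prss2) were at 0, the acinar list summing to at most 4.10 CPM. At 24 h the T cell median was above the pan-epithelial one, at 70.1 against 19.2 CPM with vehicle and 103 against 62.1 with propyzamide. The alpha-defensin medians were still higher there, at 1376 and 1838 CPM. Total counts ran from 438519 to 2071732 in 23 libraries and reached 9812102 in propyzamide 24 h replicate 3. Of these counts only 3.73% to 9.62% lay in named protein-coding genes, against 29.9% in that deepest library. This class leaves out mitochondrially encoded genes, symbols that begin with Olfr or Vmn, and provisional symbols such as Gm numbers and Rik names. Counts outside it can therefore still be protein coding. The deepest library carried 14799 pan-epithelial counts, where the other 3 of its group had 17 to 93. The shallowest library was replicate 3 of propyzamide at 3 h, with 10 pan-epithelial counts. Both stayed in the fits, and values without them are given beside several results on propyzamide groups, but not beside all. In bulk libraries fewer Paneth cells and less RNA per Paneth cell cannot be told apart. Library names carry an index sequence that the labels do not call a batch. It is shared by vehicle at 3 h and all unstimulated libraries, and differs in the remaining 3 groups, so it cannot be told apart from stimulation among propyzamide libraries, from 24 h against either earlier stage among vehicle libraries, or from treatment at 3 h, which also enters the interaction at 3 h.

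All 7 genes passed the filter on low counts, which left 3799 genes, but their depth differed widely. Over the 23 shallower libraries Lyz1 had 9102 counts and Itln1 3866, while Ang4 had 748, Reg3g 606, Reg3b 517, Mptx2 320 and Mmp7 297. Lyz1 lies on chromosome 10 (GRCm38, 117287797 to 117292868, minus strand). Itln1 (171518122 to 171535294) and Mptx2 (173274382 to 173277777) lie on the minus strand of chromosome 1. Reg3b (78370657 to 78373466, plus strand) and Reg3g (78466269 to 78468872, minus strand) both lie on chromosome 6. Ang4 lies on chromosome 14 (51763878 to 51773590, minus strand) and Mmp7 on chromosome 9 (7692090 to 7699585, plus strand). Of the stretches of 31 bases in Lyz1 transcripts, 34.2% also occur in Lyz2, the lysozyme of macrophages, and 25.1% of those of Mptx2 occur in Mptx1, so reads there could be split between the copies. Lyz2 had 223 counts in unstimulated vehicle libraries against 3711 for Lyz1, and Mptx1 had 4 against 102 for Mptx2. The counts were nearer to each other at 3 h. Lyz2 had 65 against 545 for Lyz1 with vehicle and 115 against 563 with propyzamide. Mptx1 had 2 against 8 for Mptx2 with vehicle and 2 against 4 with propyzamide. Reg3g and Reg3b share only 5 such stretches, 0.446% of those of Reg3b.

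The 250 bases before the RefSeq start site (GRCm38.p6) are shown for the Reg3 pair, which are close relatives with unequal values at 24 h, and for Lyz1 and Itln1, which moved together across libraries. Capitals mark TTCNNNGAA, the spacing of a STAT site, and CTTTGA, a core of the T cell factor site that mediates Wnt signals, each searched on both strands with no overlap between the 2 motifs. The windows are chr6:78370635-78370884 (plus strand), chr6:78468875-78469124, chr10:117292869-117293118 and chr1:171535295-171535544 (minus strand for these 3).
Reg3b: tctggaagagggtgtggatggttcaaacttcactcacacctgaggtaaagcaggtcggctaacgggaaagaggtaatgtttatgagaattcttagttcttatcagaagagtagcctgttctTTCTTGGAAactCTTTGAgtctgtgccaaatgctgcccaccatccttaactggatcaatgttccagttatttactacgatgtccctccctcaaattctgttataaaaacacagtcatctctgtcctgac
Reg3g: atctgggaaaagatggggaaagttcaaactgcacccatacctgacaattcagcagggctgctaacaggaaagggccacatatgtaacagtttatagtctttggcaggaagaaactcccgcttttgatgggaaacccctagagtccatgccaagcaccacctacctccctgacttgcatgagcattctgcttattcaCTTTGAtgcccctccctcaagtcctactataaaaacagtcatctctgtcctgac
Lyz1: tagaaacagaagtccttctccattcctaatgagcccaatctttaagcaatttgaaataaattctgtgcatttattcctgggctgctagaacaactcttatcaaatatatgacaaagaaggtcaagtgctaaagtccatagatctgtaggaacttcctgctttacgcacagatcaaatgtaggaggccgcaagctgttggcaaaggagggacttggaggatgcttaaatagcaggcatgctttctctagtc
Itln1: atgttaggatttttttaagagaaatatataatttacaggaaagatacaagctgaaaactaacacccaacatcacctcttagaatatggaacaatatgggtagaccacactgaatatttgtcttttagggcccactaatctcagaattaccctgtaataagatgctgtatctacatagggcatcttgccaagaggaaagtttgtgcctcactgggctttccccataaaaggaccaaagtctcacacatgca

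Over the full windows of 300 bases, which reach 50 bases past the start, Reg3b and Reg3g matched at 69.1% of 307 aligned positions. The other pairs among the 7 genes matched at 48.96% to 53.1%. Reg3b held TTCNNNGAA at 129 to 121 bases before its start and CTTTGA at 117 to 112 bases before it. Reg3g held CTTTGA at 54 to 49 bases before its start and no TTCNNNGAA in this window. Among 32851 promoters of this length, 8.30% held TTCNNNGAA and 16.0% held CTTTGA. Ang4 was the only other of the 7 with TTCNNNGAA, Mmp7 the only other with CTTTGA, and Lyz1, Itln1 and Mptx2 held neither. The RefSeq start of Reg3b lies 228 bases inside the gene as GENCODE draws it. A match in these letters is a description and shows no binding.

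Lyz1 and Itln1, the most abundant of the 7, were lower 3 h after anti-CD3 in both treatments. Several lists of markers of other cells moved the same way at 3 h, with none of their genes called. The 6 tested B cell genes had median log2 fold changes of -0.97 with vehicle and -1.14 with propyzamide, and the 4 tested plasma cell genes -1.22 and -1.18, all negative in both. The 9 tested pan-epithelial genes had medians of -0.47 (7 of 9 negative) and -1.64 (9 of 9 negative), and the 10 tested enterocyte genes -0.85 (9 of 10) and -1.89 (10 of 10). The 13 tested secretory pathway genes had medians of -0.08 and -1.06. With propyzamide the epithelial medians were of a size with the changes of Lyz1 and Itln1 given below, and the part of these cells in them was not tested. Not every list fell. The median sum of neutrophil genes went from 15.7 to 31.4 CPM with vehicle, where S100a9 was called higher, and from 14.8 to 62.5 with propyzamide. T cell genes went from 23.9 to 29.7 with vehicle and from 34.5 to 16.4 with propyzamide. Enteroendocrine and tuft cell genes went from 10.8 to 13.6 and from 10.3 to 6.75. In vehicle libraries Lyz1 stood at 520, 419, 682 and 450 CPM without stimulation and at 163, 132, 198 and 159 CPM at 3 h. Every 3 h library lay below every unstimulated one. The mean went from 518 ± 118 to 163 ± 27.2 CPM (SD, n = 4 each), a log2 fold change of -1.67 ± 0.40 (SE) that missed the threshold of 0.05 in edgeR (adjusted p = 0.0653, and 0.000491 to 0.0924 over the other settings that keep every group's 4 libraries or drop an outlying one).

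Itln1 was at 255, 189, 258 and 196 CPM in unstimulated vehicle libraries and at 57.1, 44.1, 60.5 and 64.4 CPM at 3 h, again without overlap. It fell by 1.99 ± 0.42 on the log2 scale (edgeR adjusted p = 0.0297) and was the 1 called among the 7, where 0.105% of all 3799 tested genes were called lower. Its fold change stayed between -2.07 and -1.89 in 24 fits that each left out 1 library. The call was lost in each of the 8 fits that left out a library of these 2 groups (adjusted p up to 0.136) and kept in the other 16.

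With propyzamide Lyz1 stood at 451, 841, 697 and 341 CPM without stimulation and at 244, 99.4, 59.7 and 128 CPM at 3 h. The ranges did not overlap, though both groups spread more widely than with vehicle. Lyz1 fell by 2.12 ± 0.41 (edgeR adjusted p = 0.0159). Itln1 was at 170, 340, 280 and 152 CPM, then at 139, 53.4, 22.6 and 76.9 CPM. The highest 3 h library of Itln1 lay just under the lowest unstimulated one, and Itln1 fell by 1.67 ± 0.41 (edgeR adjusted p = 0.0478). Together with Mptx2, 3 of the 7 genes were called lower in this comparison, where 0.553% of all tested genes were. Without the deepest and the shallowest library the same 3 genes were called, Lyz1 at -1.92, Itln1 at -1.42 and Mptx2 at -3.77. The calls of Lyz1 and Mptx2 were lost in the 5 fits that left out propyzamide unstimulated replicate 2 or 3 or propyzamide 3 h replicate 2, 3 or 4. Itln1 was called in 2 of the 24 fits that left out a library.

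Mptx2 had the lowest 3 h values relative to its own unstimulated level. Its 4 unstimulated vehicle libraries held 10, 26, 41 and 25 counts, and the 3 h libraries held 3, 5, 0 and 0. With propyzamide the counts were 6, 30, 44 and 6 without stimulation, then 3, 0, 0 and 1 at 3 h. In both treatments the 3 h CPM lay below every unstimulated value. With propyzamide Mptx2 fell by 4.01 ± 0.87 (edgeR adjusted p = 0.029), and with vehicle its fold change was -2.58 ± 0.77 (adjusted p = 0.21). The 3 h totals were 4 and 8 counts, so the size of the change rests on few counts.

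Mmp7 and Ang4 had negative fold changes at 3 h that were not called. Mmp7 stood at 13.2, 10.1, 20.0 and 16.5 CPM in unstimulated vehicle libraries and at 0, 3.80, 1.31 and 8.83 CPM at 3 h, without overlap. Its fold change was -2.01 ± 0.61 with vehicle (edgeR adjusted p = 0.246) and -1.74 ± 0.59 with propyzamide (adjusted p = 0.176). Ang4 went from 37.8 ± 8.64 to 15.2 ± 11.4 CPM with vehicle, where 1 library at 3 h (31.5 CPM) lay within the unstimulated range. Its fold change was -1.30 ± 0.52 with vehicle (edgeR adjusted p = 0.619) and -1.69 ± 0.52 with propyzamide (adjusted p = 0.141). Counting both treatments, Lyz1, Itln1, Mptx2 and Mmp7 were each lower in all 3 h libraries than in all unstimulated ones of their treatment, where 3.79% of tested genes separated this way with vehicle and 5.11% with propyzamide.

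**Figure D1:**
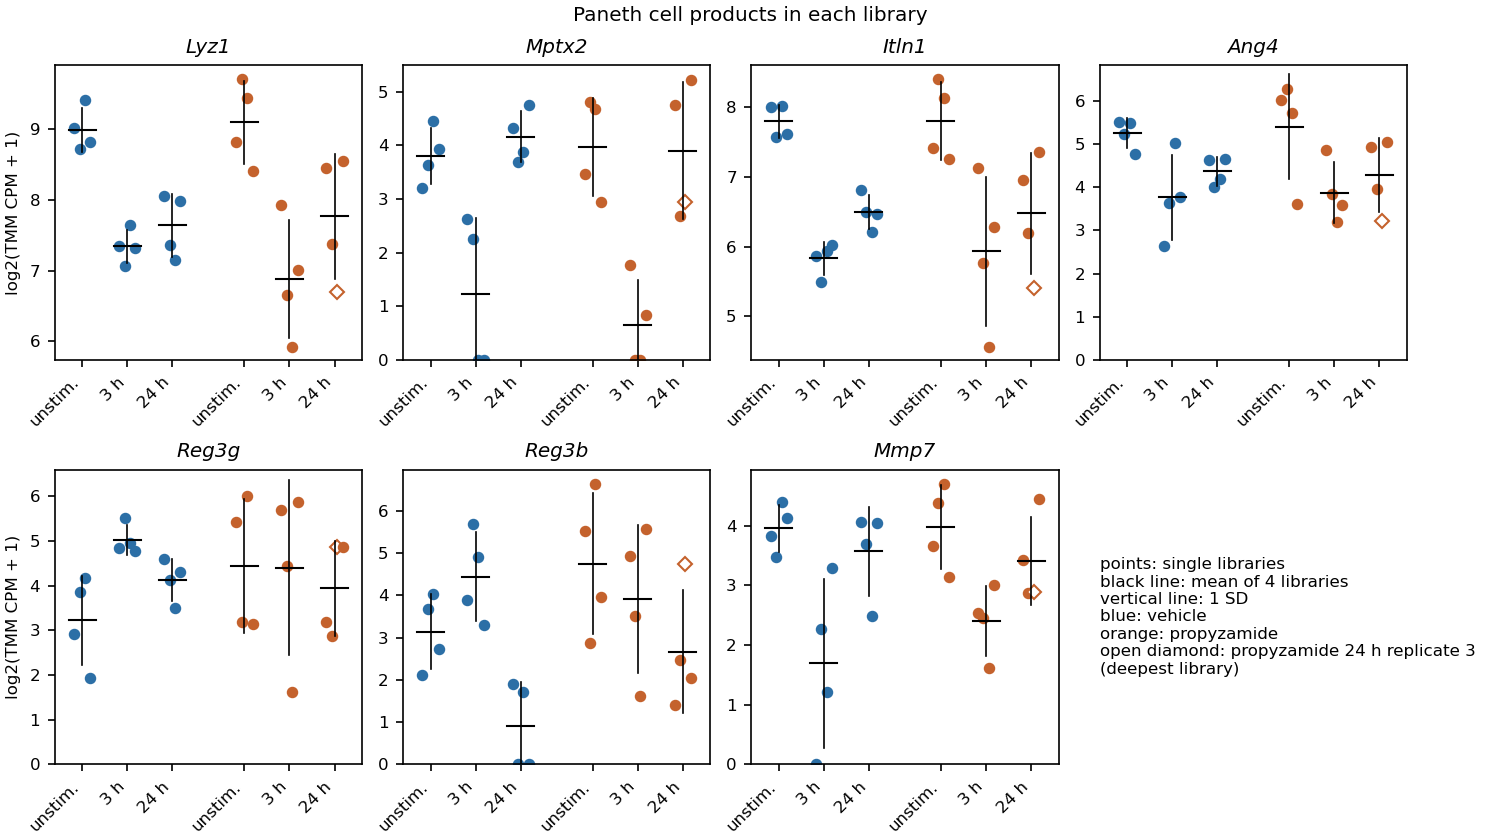
Level of each of the 7 Paneth cell products in each library, as log2(TMM CPM + 1), by treatment and time after anti-CD3, with the mean and 1 SD of 4 libraries. Lyz1, Itln1, Mptx2 and Mmp7 sit lower at 3 h than without stimulation in every library of both treatments, and Reg3b is at 0 in 2 of 4 vehicle libraries at 24 h.

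Reg3g and Reg3b did not share this pattern. Reg3g stood at 6.61, 13.6, 16.9 and 2.84 CPM in unstimulated vehicle libraries and at 27.7, 44.9, 30.2 and 26.5 CPM at 3 h. All 4 stimulated libraries were above all unstimulated ones, a separation in this direction that 1.5% of tested genes had, and the fold change of 1.68 ± 0.66 was not called (edgeR adjusted p = 0.613). Reg3b was at 3.30, 11.8, 15.4 and 5.68 CPM, then at 13.8, 50.2, 28.9 and 8.83 CPM. Its ranges overlapped, with a fold change of 1.49 ± 0.78 (adjusted p = 0.864).

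With propyzamide the pair was uneven before stimulation. Reg3b stood at 45.1, 6.30, 98.7 and 14.5 CPM without stimulation and at 29.7, 10.4, 2.06 and 46.3 CPM at 3 h. Reg3g stood at 41.7, 8.10, 63.5 and 7.82 CPM, then at 50.5, 20.8, 2.06 and 57.3 CPM. Replicates 1 and 3 of the unstimulated group were high for both genes, and the shallowest library was lowest for both at 3 h with 1 count of each. Enterocyte genes summed to between 61.2 and 856 CPM in that unstimulated group, against 119 to 191 CPM with vehicle, and their part in the Reg3 spread was not tested. The 3 h fold change was 0.16 ± 0.63 for Reg3g and -0.83 ± 0.75 for Reg3b (edgeR adjusted p = 0.922 and 0.645). Without the deepest and the shallowest library it was 0.46 for Reg3g and -0.55 for Reg3b.

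**Figure D2:**
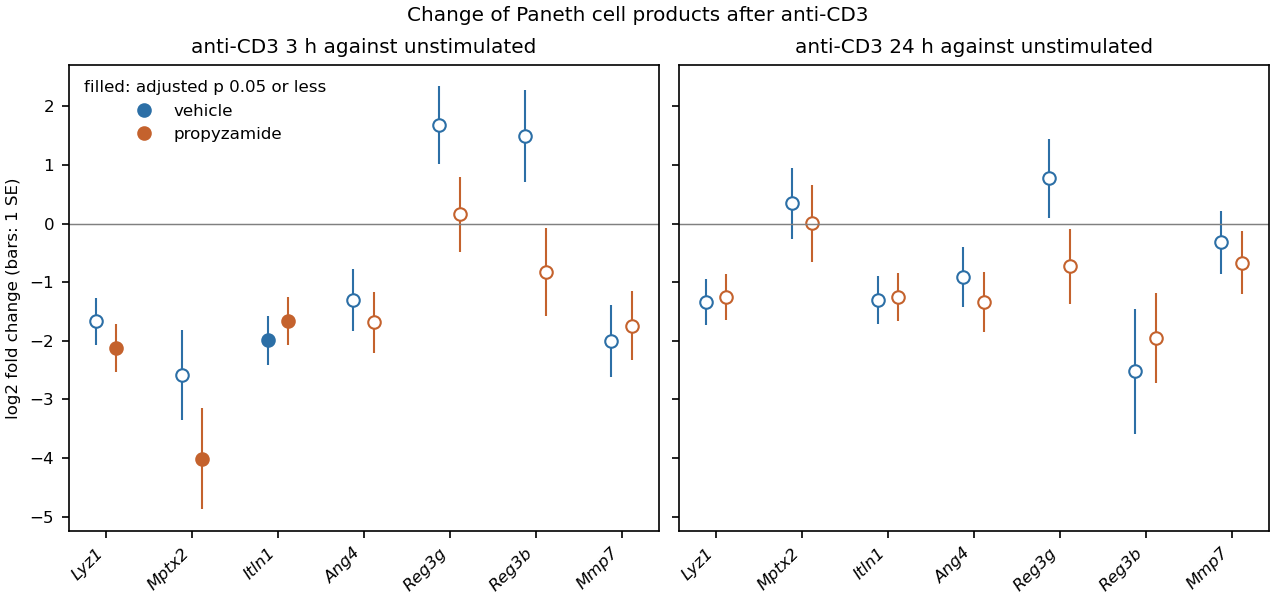
Log2 fold change of each of the 7 genes at 3 h (left) and 24 h (right) after anti-CD3 against unstimulated libraries of the same treatment, with 1 SE, filled where the edgeR adjusted p was 0.05 or less. At 3 h the values of Lyz1, Mptx2, Itln1, Ang4 and Mmp7 lie between -4.01 and -1.30 in both treatments, and those of Reg3g and Reg3b between -0.83 and 1.68.

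At 24 h none of the 7 genes was called against unstimulated libraries, in either treatment, where 0.421% of tested genes were called with vehicle and 0.079% with propyzamide. At an unadjusted p under 0.05, 272 and 547 of the 3799 genes passed. In vehicle libraries Lyz1 stood at 264, 164, 142 and 251 CPM at 24 h and Itln1 at 111, 89.6, 73.1 and 87.7 CPM, all below their unstimulated values. Their fold changes were -1.33 ± 0.40 and -1.31 ± 0.41 (edgeR adjusted p = 0.17 and 0.219), and both were called without the deepest and the shallowest library. Lyz1, Itln1, Ang4 and Reg3b had no overlap with unstimulated vehicle libraries, where 4.29% of tested genes were lower in this way. With propyzamide the values of all 7 genes overlapped with the unstimulated ones, where 2.16% of tested genes were lower and 4.26% higher without overlap. The fold changes there were -1.25 ± 0.39 for Lyz1, -1.25 ± 0.41 for Itln1 and -1.34 ± 0.51 for Ang4. Without the deepest library they were -0.95, -0.94 and -0.98.

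At 24 h against unstimulated libraries, Mptx2 and Mmp7 had fold changes smaller in size than Lyz1 and Itln1, a difference between genes that was not tested. Against unstimulated libraries Mmp7 was at -0.32 ± 0.54 with vehicle and -0.67 ± 0.54 with propyzamide, with overlap in both. From 3 h to 24 h it had 1.68 ± 0.64 and 1.07 ± 0.61, neither called. The vehicle libraries of Mptx2 held 19.1, 11.9, 13.7 and 25.8 CPM at 24 h, against 8.26, 11.4, 21.0 and 14.2 CPM without stimulation, so that the ranges overlapped (fold change 0.35 ± 0.61). With propyzamide it was at 26.1, 5.42, 6.72 and 36.3 CPM, with a fold change of 0.00 ± 0.65 whose 95% interval ran from -1.33 to 1.34, and 0.37 without the deepest library. From 3 h to 24 h Mptx2 rose by 4.01 ± 0.87 with propyzamide (edgeR adjusted p = 0.0078), without overlap between the times (12.3% of tested genes were higher in this way), and it was called in all 24 fits that left out a library. It was the only one of the 7 called in that comparison, where 8.61% of tested genes were called higher. With vehicle Mptx2 and Itln1 were above all their 3 h values, as were 5.16% of tested genes, and Mptx2 gave 2.93 ± 0.79 (adjusted p = 0.116), in a comparison where edgeR called 0% of tested genes and 462 genes had an unadjusted p under 0.05. Over this step Lyz1 had fold changes of 0.33 ± 0.39 with vehicle and 0.87 ± 0.39 with propyzamide. Without the deepest library the latter was 1.17 and was called (edgeR adjusted p = 0.0472), and without the shallowest as well it was 0.94 (adjusted p = 0.121).

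Counts of 1 gene relative to another within a library do not depend on the library's total. Per 1000 Lyz1 counts, Mptx2 had a median of 29.0 in unstimulated vehicle libraries, 14.4 at 3 h and 84.8 at 24 h. The 24 h libraries ran from 72.4 to 103 and the unstimulated ones from 15.9 to 31.6. The 3 h libraries stood at 31.9, 28.7, 0 and 0, from 3, 5, 0 and 0 Mptx2 counts, so their median shows no clear fall. With propyzamide the medians were 27.2, 3.07 and 69.9 (74.8 without the deepest library), and the lowest 24 h library (33.0) lay within the unstimulated range of 19.7 to 35.2. Mmp7 had medians of 27.3, 17.7 and 60.5 with vehicle and 24.7, 39.6 and 47.1 with propyzamide (38.5 at 24 h without the deepest library). The vehicle libraries of Mmp7 ran from 0 to 55.6 at 3 h. Itln1 kept close to Lyz1, at 305 to 601 per 1000 in all 24 libraries, and Ang4 had medians between 75.1 and 125 per 1000.

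**Figure D3:**
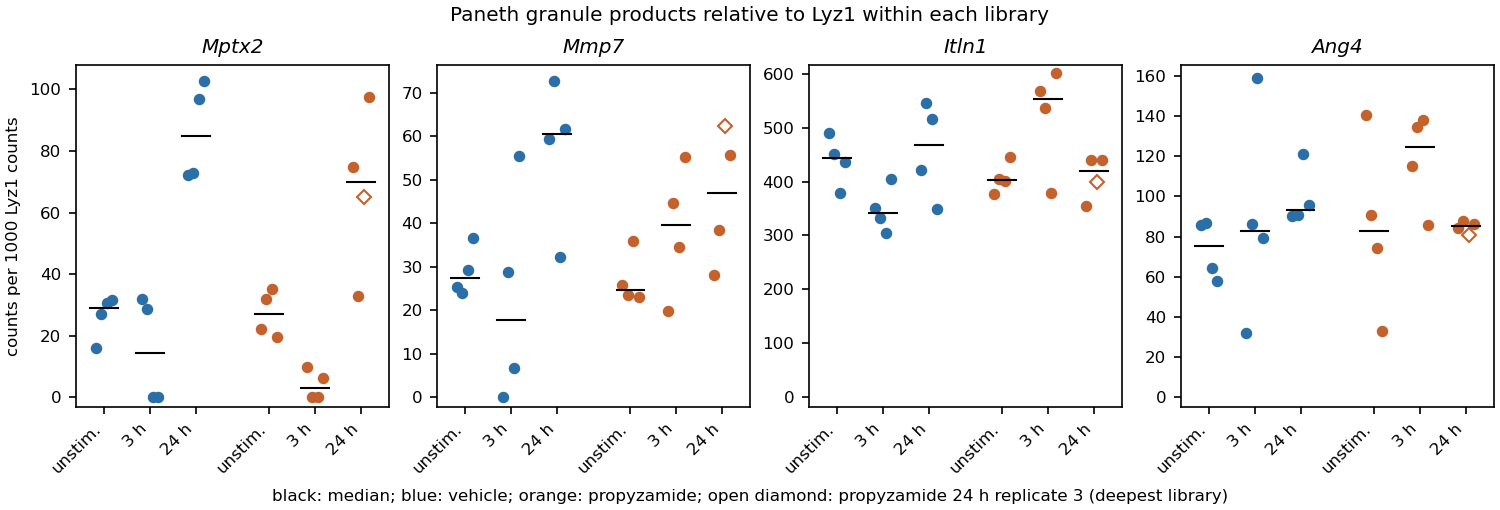
Counts of Mptx2, Mmp7, Itln1 and Ang4 per 1000 Lyz1 counts in each library, by treatment and time, with the group median. Mptx2 lies at 72.4 or more in all 4 vehicle libraries at 24 h and at 31.6 or less in the unstimulated ones, while Itln1 stays between 305 and 601 in all 24 libraries.

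Lyz1 also kept close to the alpha-defensins. Lyz1 counts were 9.41 to 19.99 per 100 alpha-defensin counts over the 24 libraries, a 2.12-fold range, while Lyz1 itself spanned a 14.1-fold range in CPM. Of 45 alpha-defensin genes 22 were tested. Their median log2 fold change at 3 h was -1.46 with vehicle and -1.66 with propyzamide, beside -0.04 and -0.13 for all tested genes, with 2 and 3 of the 22 called lower and none higher. Defa23 and Defa39 were called with vehicle (-2.08 ± 0.46 and -1.996 ± 0.447), and Defa24 (-1.74 ± 0.40) and Defa29 (-2.60 ± 0.54) with propyzamide, where Defa21, named after its value was seen, was the third. Alpha-defensins are close copies, so single members are uncertain. Over the 24 libraries, with CPM that share each library's depth and scaling, the genes most like Lyz1 were Defa24 and Defa17 (Spearman 0.967 and 0.958) and Itln1 (0.945). The genes most like Ang4 were Defa22 and Defa39 (0.898 and 0.879). Mptx2 was nearest to Mmp7 (0.805) and then to the mitochondrial gene mt-Co1 (0.784). Mmp7 was nearest to the mitochondrial genes mt-Nd1 and mt-Co1 (0.834 each), with Itln1 next (0.823).

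Other Paneth cell genes gave few counts. Of 17 listed genes only Pnliprp2, Clps, Cd24a and Xbp1 were tested, and none was called in either treatment at 3 h or 24 h. Pnliprp2, a pancreatic-type lipase, had fold changes of -2.35 and -2.02 at 3 h with vehicle and propyzamide. Clps, colipase, had -1.39 and -1.52. Xbp1, a transcription factor of secretory cells, had -0.08 and -0.36. Cd24a, a surface glycoprotein used to sort Paneth cells, had 0.37 and -1.28, the 1 positive value among the 4 with vehicle.

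Relative to pan-epithelial genes, Lyz1 was high at 24 h, although its own fold change in CPM was -1.33 with vehicle and -1.25 with propyzamide. All tested genes had a median of -0.03 and 0.03, so a gene with little change in CPM also rises on a scale set by genes that fell. At 24 h the tested pan-epithelial genes had a median fold change of -3.12 with vehicle, where 1 of them, Elf3, was called lower, and of -1.01 with propyzamide. The tested enterocyte genes had medians of -3.50 and -0.94, with none called. The deepest library enters both propyzamide medians, and its part in them was not tested. It held the highest sums at 24 h, 462 CPM for pan-epithelial and 689 CPM for enterocyte genes. The group medians were 62.1 and 23.5 CPM, against 292 and 232.5 CPM in unstimulated propyzamide libraries. Lyz1 had a median of 2.48 counts per pan-epithelial count in unstimulated vehicle libraries, 1.12 at 3 h and 8.23 at 24 h. The ranges were 2.05 to 3.31, 0.887 to 2.07 and 6.91 to 13.3, so the 24 h libraries stood apart from both other groups. Only 11 to 56 pan-epithelial counts were behind each of these 24 h values. With propyzamide the medians were 1.38, 1.13 and 6.72. There the deepest library lay at 0.223, below every other library, and the other 3 at 24 h lay between 3.86 and 12.6.

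With vehicle, Mptx2 and Reg3g were also high on this scale at 24 h, and Reg3b was not. Per 100 pan-epithelial counts, Mptx2 went from a median of 6.57 to 1.42 and then 68.6 with vehicle. Reg3g went from 4.94 to 24.98 at 3 h and 76.2 at 24 h, with no overlap between any of the 3 groups, while its mean CPM went from 32.3 at 3 h to 17.2 at 24 h. Reg3b went from 4.41 to 13.2 and then 3.57. With propyzamide the medians were 3.84, 0.267 and 34.6 for Mptx2. Those of Reg3g were 8.16, 23.6 and 29.2, and its 24 h libraries (6.07 to 36.8) overlapped those at 3 h (10 to 39.04). Those of Reg3b were 10.2, 12.8 and 5.74. The ratios were formed after the values were seen, were not tested and were not set beside those of all genes.

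**Figure D4:**
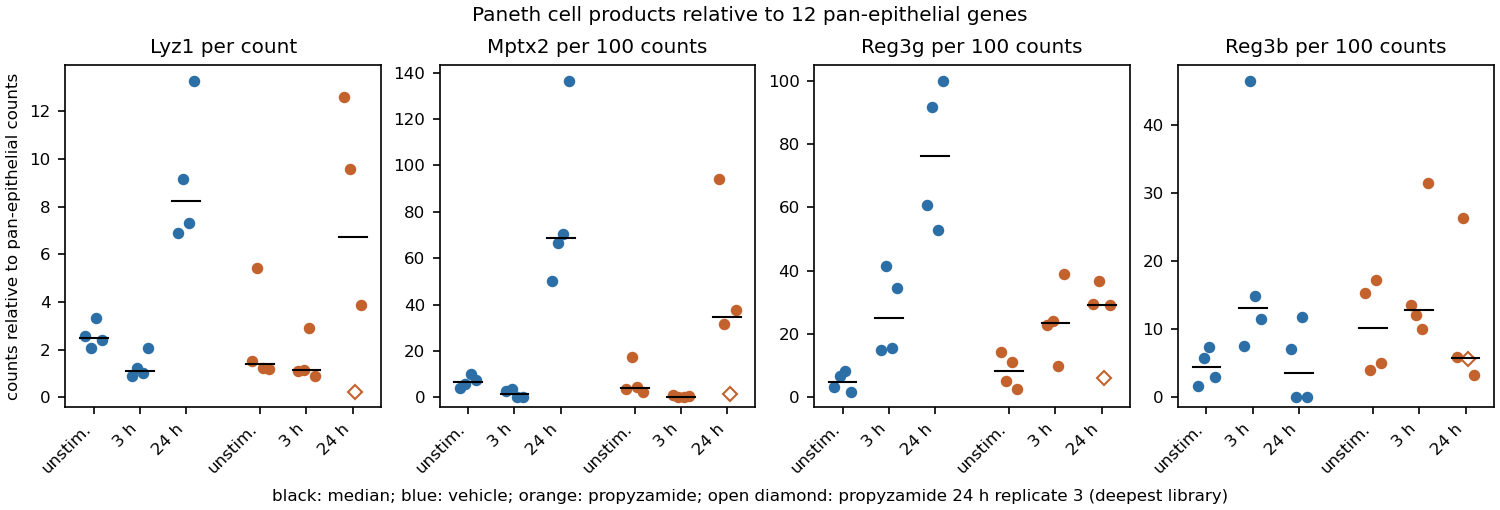
Counts of Lyz1 per count, and of Mptx2, Reg3g and Reg3b per 100 counts, of 12 pan-epithelial genes in each library, by treatment and time, with the group median. Lyz1 lies between 6.91 and 13.3 in the 4 vehicle libraries at 24 h and at 3.31 or less in the other vehicle libraries, while the deepest propyzamide library lies at 0.223.

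The Reg3 pair had unequal values at 24 h in vehicle libraries, a difference between the genes that was not tested. Reg3b had 4, 0, 2 and 0 counts there, while Reg3g had 34, 11, 9 and 11. Both genes lay below all their 3 h values, where 5.45% of tested genes did so, but Reg3b was also below all unstimulated values and Reg3g was not. The fold change from 3 h to 24 h was -4.01 ± 1.04 for Reg3b (edgeR adjusted p = 0.105) and -0.91 ± 0.67 for Reg3g (adjusted p = 0.572). Neither passed the threshold with all libraries, and Reg3b rests on 6 counts at 24 h against 103 at 3 h. Reg3b was called lower without the filter on low counts, among named protein-coding genes only (adjusted p = 0.012), with DESeq2 (adjusted p = 0.0234) and without the deepest and the shallowest library (adjusted p = 0.0323).

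Reg3b made up 33.3%, 46.6%, 47.6% and 66.7% of the Reg3b and Reg3g counts in unstimulated vehicle libraries. At 3 h the share was 33.3%, 52.8%, 48.9% and 25%, and at 24 h it was 10.5%, 0%, 18.2% and 0%. All 24 h shares were below all earlier ones. This separation was not tested, was not set beside that of other gene pairs and rests on few Reg3b counts at 24 h. Among vehicle libraries the index sequence also changes with 24 h. The exact 95% binomial intervals at 24 h reached up to 24.8%, 28.5%, 51.8% and 28.5%, and they cover counting error only. With propyzamide the 24 h shares were 16.7%, 41.7%, 47.9% and 10%, and the 47.9% came from the deepest library, whose interval was 45.6% to 50.3%. Without that library the median was 16.7%, against 56.4% unstimulated and 40.8% at 3 h.

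**Figure D5:**
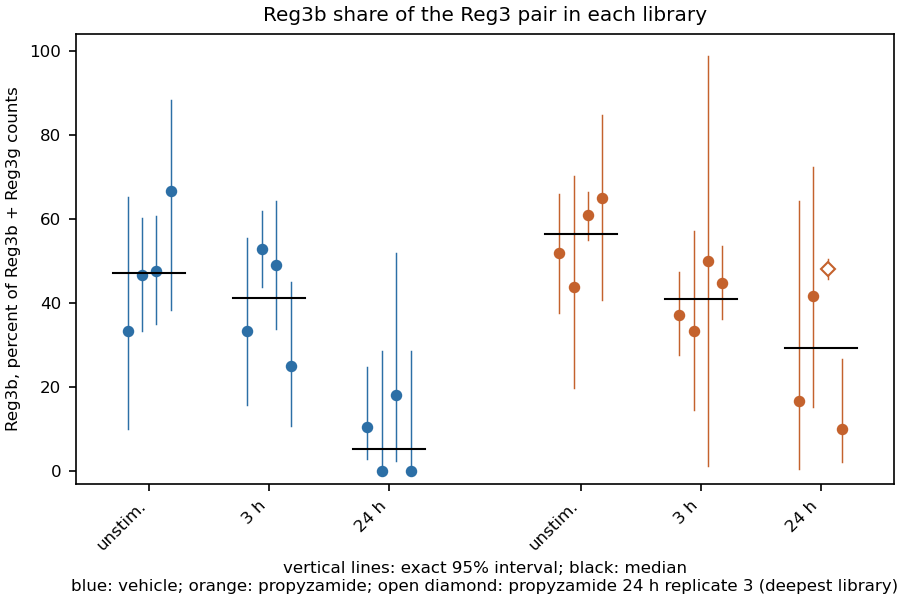
Reg3b as a percent of the summed Reg3b and Reg3g counts in each library, by treatment and time, with exact 95% binomial intervals and the group median. The 4 vehicle libraries at 24 h lie at 18.2% or less and all earlier vehicle libraries at 25% or more, while the deepest propyzamide library at 24 h lies at 47.9%.

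Genes whose levels tracked Reg3b across libraries differed from those of the granule products. They were Tspan8 (Spearman 0.882), a tetraspanin, Krt19 (0.83), a keratin of simple epithelia that is itself in the pan-epithelial list, and St3gal4 (0.802), a sialyltransferase. Reg3g was nearest to Reg3b (0.685), then to Ehd1 and Anxa2 (0.661 and 0.659). Neither Reg3 gene tracked Lyz1 (-0.13 for Reg3g and 0.05 for Reg3b). Of the other Reg genes, Reg2 and Reg4 were tested and not called at 3 h or 24 h, with Reg4 at -1.13 and -1.82 with vehicle and Reg2 at 0.81 and -0.01.

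Signals known to act upstream of Reg3 genes were thinly covered. Of 15 listed cytokine, receptor and signalling genes, Stat3, Socs3, Il1b and Il17ra were tested, with a median fold change of 0.53 at 3 h and 0.67 at 24 h with vehicle and none called. With propyzamide the medians were -0.36 (3 of 4 negative) and 0.53, again with none called. Propyzamide against vehicle without stimulation gave 0.81, with 4 of 4 positive and none called. Stat3 is the transcription factor downstream of interleukin-22. In vehicle libraries it stood at 11.8 ± 3.58 CPM without stimulation, 18.3 ± 7.76 at 3 h and 22.5 ± 10.8 at 24 h. Socs3, a target and inhibitor of STAT3, stood there at 6.67 ± 6.12, 12.8 ± 9.29 and 15.9 ± 5.40 CPM in the same order. Their propyzamide values, from a list with 3 of 4 negative at 3 h, are not given here. Il17a was at 0 in every group except propyzamide at 24 h, the group that holds the deepest library. That group had 4905 counts over the 15 genes and none of them at 0, against 274 to 383 counts in the other groups. Ifng was also at 0 in all vehicle groups and in unstimulated propyzamide libraries. The part of depth in these detections was not tested.

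Propyzamide was compared with vehicle at each stage, and none of the 7 genes was called at any of the 3. EdgeR called 0% of all tested genes at each stage, with 128, 114 and 388 genes at an unadjusted p under 0.05, and DESeq2 called none of the 7 either. The values of all 7 genes overlapped between the treatments at every stage. Without overlap, 2.11% of tested genes were lower and 0.974% higher with propyzamide before stimulation, 2% and 0.658% at 3 h, and 2.37% and 2.47% at 24 h. For Lyz1 the fold change was 0.17 (95% interval -0.62 to 0.96) without stimulation, -0.28 (-1.09 to 0.52) at 3 h and 0.26 (-0.54 to 1.06) at 24 h. These intervals include no change and also changes of close to 1 on the log2 scale. Among Lyz1, Itln1, Mptx2, Ang4 and Mmp7 the values ran from -1.08 for Mptx2 at 3 h to 0.43 for Ang4 without stimulation.

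At 3 h the largest treatment difference of the 7 was that of Mptx2 (-1.08 ± 1.10), with Reg3b at -0.16 ± 0.76. Reg3b had the largest of the 7 without stimulation and at 24 h. Without stimulation its mean was 41.1 ± 41.8 CPM with propyzamide against 9.05 ± 5.54 with vehicle, a fold change of 2.17 ± 0.78 (95% interval 0.58 to 3.75, edgeR adjusted p = 1). At 24 h the means were 8.77 ± 11.4 and 1.25 ± 1.46 CPM, a fold change of 2.74 ± 1.05 (adjusted p = 0.379). Replicate 3 of that propyzamide group held 25.8 CPM and the other 3 held 1.63 to 4.52. Without that library the fold change was 1.06 (adjusted p = 0.878). Reg3g without stimulation gave 1.59 ± 0.66 (adjusted p = 1). Without replicate 3 of the unstimulated propyzamide group these unstimulated fold changes were 1.16 for Reg3b and 0.83 for Reg3g.

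The response to anti-CD3 was tested for a difference between the treatments through the interaction term. None of the 7 was called at 3 h or 24 h, where 0% of tested genes were, with 123 and 89 genes at an unadjusted p under 0.05. The interaction at 3 h was -2.32 ± 1.08 for Reg3b, -1.52 ± 0.91 for Reg3g, -1.43 ± 1.25 for Mptx2 and -0.45 ± 0.55 for Lyz1 (edgeR adjusted p = 0.997 for each). Without the deepest and the shallowest library they were -2.03, -1.21, -1.22 and -0.25. The treatments are therefore not shown to differ in the fall of Lyz1, Itln1 or Mptx2, although the calls differed between them.

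Levels of different genes were set side by side in TPM, which divides counts by transcript length. In unstimulated vehicle libraries Lyz1 came first (245 ± 44.6 TPM), followed by Itln1 (120 ± 8.29) and Ang4 (37.5 ± 5.97). Mptx2 (11.97 ± 4.81), Reg3g (8.92 ± 5.93), Mmp7 (8.74 ± 2.57) and Reg3b (8.71 ± 4.77) did not differ beyond their spread. At 3 h with vehicle Reg3g (23.9 ± 6.08 TPM) and Reg3b (20.9 ± 12.3) stood close to Itln1 (25.8 ± 6.64), while Mptx2 (1.85 ± 2.35) and Mmp7 (1.50 ± 1.61) were last. At 24 h the order was Lyz1 (70.8 ± 13.2), Itln1 (36.2 ± 8.14), Ang4 (14.4 ± 1.23), Reg3g (11.2 ± 3.27) and Mptx2 (10.6 ± 1.60), with Reg3b last at 0.799 ± 0.922 TPM. Lyz1 and Itln1 held the first 2 places in all 6 groups.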

How the data were processed

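Libraries were made by SMART-seq2, per the labels' protocols, and quantified by the authors with kallisto on GRCm38, per the submitters' processing notes. Its version is not given in the sources used here. The deposited files give expected counts for 142604 transcripts, per the file headers, and TPM, per the file headers. A further deposited column, classed as other, holds transcript lengths in bases. Expected counts were summed by gene and rounded; TPM was summed by gene.

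Counts were tested with edgeR 4.0.16 (limma 3.58.1, R 4.3.3), after a check on simulated data: filterByExpr, TMM, 1 coefficient per group over 24 libraries, quasi-likelihood F test, Benjamini-Hochberg adjustment within a comparison over 3799 genes, and a threshold of 0.05. Biological variation between replicates was 46.4%. Alternatives were RLE scaling, no filter, named protein-coding genes only, no deepest library, DESeq2 1.42.0, limma-trend on log2(TPM + 1), each library left out in turn, and, added after the values were seen, both outlying libraries left out. A floor of 3 counts was not needed, since no group of 4 libraries was at 0 for any of the 7 genes. Intervals have 95% confidence. Those of fold changes come from the edgeR fit and cover the spread between libraries. Those of shares are binomial and cover counting error only, since reads carry no molecular identifiers.

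The 7 genes and all gene lists were chosen with earlier results of these data known. Named genes are the 7, their relatives with at least 10 counts, up to 4 measured genes per list with the smallest p in any pairwise comparison, and the 3 tested protein-coding genes most correlated with each of the 7. Symbols came from the files, coordinates from GENCODE and promoters from RefSeq, which held all 7 genes.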

Additional observations from a re-analysis of the deposited data

Results flagged for a closer look

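In the propyzamide 24 h group, 1 library stood far from the other 3 for Reg3b. Replicate 3 was at 25.8 CPM, while the others lay between 1.63 and 4.52 CPM. This was 1 of 42 checks of a gene in a group of 4, and chance alone marks about 1 in 20 such groups. The same library is the deepest, at 9812102 counts, and its enterocyte genes summed to 689 CPM, where the group median was 23.5 CPM; the part of either in the Reg3b value was not tested.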

How the results depend on the processing

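No paired analysis was possible because the labels give the libraries no replicate numbers. At 3 h with vehicle 1 of the 7 genes was called, and 2 (Lyz1 and Itln1) were called with RLE scaling, without the filter, without the deepest library, without both outlying libraries, with DESeq2 and with limma-trend, with 0 to 2 over the fits that left out 1 library. At 3 h with propyzamide the 3 calls became 0 to 3 when 1 library was left out. At 24 h against unstimulated, the 0 calls became 1 (Lyz1) with vehicle without the filter, 2 (Lyz1 and Itln1) with vehicle without both outlying libraries, and 1 (Reg3b) with propyzamide without both. For 24 h against 3 h with vehicle, the 0 calls became 1 (Reg3b) without the filter and among named protein-coding genes only, and 2 (Mptx2 and Reg3b) with DESeq2 and without both outlying libraries. For the same step with propyzamide, the 1 call became 2 (Lyz1 and Mptx2) with RLE scaling, without the deepest library, with DESeq2 and with limma-trend, and was 1 to 2 when 1 library was left out. Propyzamide against vehicle at 24 h gave 1 call (Reg3b) without the filter. The cause of these differences was not tested. The fits that left out 1 library tested 3893 to 4623 genes.

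Some fold changes near 0 changed sign. Reg3g at 3 h with propyzamide was -0.085 with RLE scaling and -0.11 with DESeq2. Mptx2 at 24 h with propyzamide was -0.015 without the filter and -0.23 among named protein-coding genes only, and Mptx2 at 24 h with vehicle was -0.082 with limma-trend. Reg3g at 24 h with propyzamide was 0.032 with limma-trend. When 1 library was left out, Reg3g at 3 h with propyzamide ran from -0.14 to 0.94, Reg3b there from -1.34 to 0.19, and Mptx2 at 24 h with propyzamide from -0.63 to 0.37. Lyz1 between treatments ran from -0.15 to 0.33 without stimulation and from -0.012 to 0.57 at 24 h. Depth limits Mptx2, Mmp7 and Reg3b most, since 3 counts are 1.31 to 6.17 CPM in the 23 shallower libraries.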

Other observations

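Among other lists, the crypt stem cell marker Olfm4 was at 71.7 ± 29.5 CPM in unstimulated vehicle libraries, 51.3 ± 26.2 at 3 h and 8.46 ± 3.12 at 24 h, and it fell by 3.09 ± 0.64 on the log2 scale at 24 h (edgeR adjusted p = 0.0319). Jchain, the joining chain of secreted immunoglobulins in plasma cells, fell by 2.57 ± 0.58 over the same interval (adjusted p = 0.0417). S100a9, a calprotectin subunit of neutrophils, was at 0 in all 8 unstimulated libraries and at 13.1 ± 10.3 CPM with vehicle at 3 h, and it was called higher there (adjusted p = 0.00442). Among vehicle libraries the index sequence in the library names changes with 24 h, so it cannot be told apart from time for Olfm4 and Jchain.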
